A study of Mus musculus with 2 samples.

Results

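The machinery that carries the first signals from the T cell receptor was examined as 38 genes, chosen by symbol from a curated list, and all 38 were found among the 35275 genes of the count table. The cells were TEa cells, CD4 T cells of C57BL/6 strain with a transgenic receptor for a peptide of the I-E alpha chain, sorted from spleen after transfer. In the effector group the recipients were wild-type C57BL/6 mice that carried a skin transplant from Balb/c donors. In the exhausted group the recipients were CB6F1 mice, hybrids whose own cells carry the antigen, and no graft is named for them. Recipient strain, graft and amount of antigen changed together, so they cannot be told apart, and both groups share the same transgenic receptor. The sources used here do not state the age of the animals, how many were pooled or the time after transfer. Each group was 1 library, with totals of 7844445 (effector) and 8508129 (exhausted) reads, so values below lack a replicate check and carry no p-value. In bulk RNA, fewer cells that express a gene and less RNA per cell cannot be told apart.

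When a T cell receptor meets its peptide on a class II molecule, the coreceptor CD4 brings the kinase Lck to the CD3 chains. Lck phosphorylates tyrosine motifs in their tails, the kinase Zap70 docks there, and it phosphorylates the membrane adaptor Lat and the cytosolic adaptor Lcp2. These assemble phospholipase C gamma, Vav1, Tec family kinases and further adaptors, from which the calcium, Ras and NF-kB branches start. Phosphatases, the kinase Csk, Src-like adaptor proteins and inhibitory membrane adaptors hold the cascade back.

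Values are reads counted per gene. A ratio is exhausted over effector after scaling by effective library size, and the range beside it is an exact Clopper-Pearson 95% interval that covers counting error only. A gene is called higher or lower where the difference was 2-fold or more with an interval that excluded equality. By that rule 4 members were higher in the exhausted library, 7 were lower and 27 were neither. The members' 28.9% called stands beside a background of 13.7% of all 9999 measured genes, with 6.65% higher and 7.07% lower. Measured means at least 50 reads over both libraries, which every member reached, Trat1 through its effector reads alone. A threshold of 1.5-fold called 8 members higher and 8 lower, beside 13.7% and 13.6% of all measured genes (27.3% in either direction). A threshold of 4-fold called 0 higher and 3 lower, beside 2.2% and 2.38% (4.58% in either direction). The members are abundant genes, with a median of 6543 reads over both libraries against 744 for measured genes. Of the 6143 genes with at least 500 reads 8.27% were called, and 37 members are among those genes. The members' median log2 ratio was 0.08 beside -0.002 for all measured genes, and ratios lay above 1 for 20 members and below 1 for 18. Their median absolute log2 ratio was 0.48 against 0.32 over all measured genes, and their summed reads were 161257 and 181368, or 2.06% and 2.13% of each library.

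The called members were spread unevenly over the roles. Each gene was given 1 role, with earlier results of these data known. The inhibitory adaptors Lax1, Sla, Sla2, Sit1 and Pag1 were placed with the negative regulators. So counted, the 9 genes of the adaptor role held 4 of the 7 lower members and none of the higher ones, and the negative regulators held 3 of the 4 higher members, of which Lax1 and Sla are adaptors too, and 1 lower one. None of the 5 receptor and coreceptor members was called, whereas the alpha chain segment Trac, which is not a member, was lower by the same rule. Median log2 ratios were 0.47 for the 5 receptor and coreceptor genes, -0.27 for the 4 accessory surface genes, -0.08 for the 6 kinases, -0.49 for the 9 adaptors, 0.11 for the 4 effector genes and 0.25 for the 10 negative regulators. Groups of 4 to 10 genes and 1 library a group allow these to be described and not tested.

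**Figure D1:**
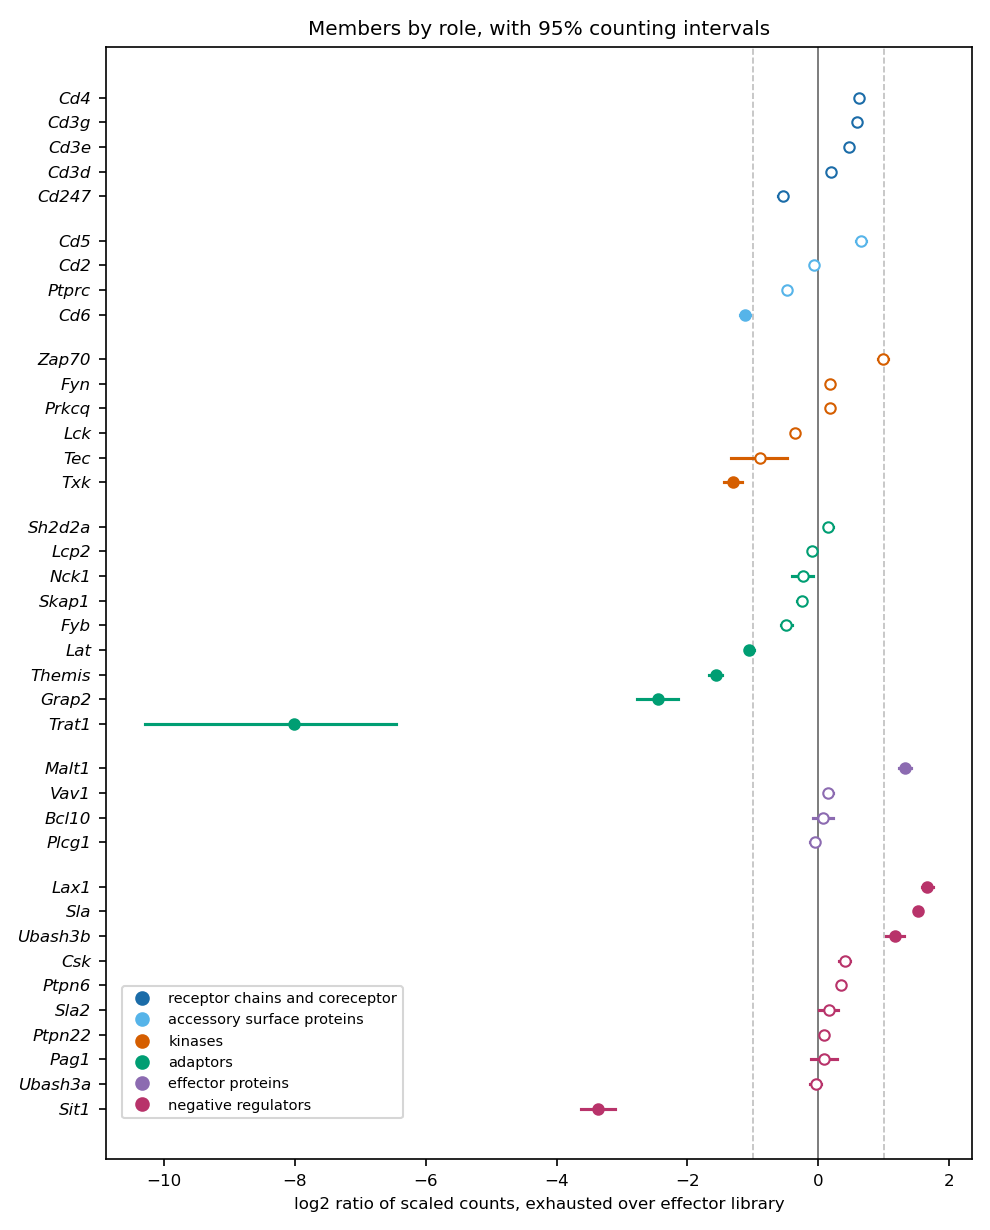
Log2 ratio of scaled counts, exhausted over effector library (x axis), for each of the 38 members (rows, coloured by role). Points are the ratios, bars their 95% counting intervals, filled points pass the 2-fold rule and dashed lines mark 2-fold. Trat1 lies at -8.01 and Sit1 at -3.36, and Lax1 is the highest at 1.67.

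The CD3 chains, which carry the signal of the receptor into the cell, were among the most abundant messages of both libraries. Cd3g (ENSMUSG00000002033, mm10 chromosome 9, 44969572 to 44980431) had 7138 reads in the effector and 11641 in the exhausted library, a ratio of 1.51 (1.46 to 1.55). Cd3e, 11.7 kb beyond Cd3d on the same chromosome, had 7624 and 11432 reads, a ratio of 1.39 (1.35 to 1.43). Cd3d, which lies 1.4 kb from Cd3g, had 5270 and 6534 reads, a ratio of 1.15 (1.11 to 1.19). These 3 neighbouring genes thus had more reads in the exhausted library, none reaching 2-fold. Cd247, which encodes the zeta chain and lies apart on chromosome 1 (165788681 to 165877277), had 3859 and 2864 reads and was 1.46-fold lower (1.39 to 1.53). The read ratio of Cd3e to Cd247 was 1.98 in the effector and 3.99 in the exhausted library. In reads per kilobase of the deposited gene length, Cd247 took 7.43% of the CD3 family in the effector and 3.84% in the exhausted library, while Cd3g took 39.7% and 45.1%. Exons of Cd247 overlap those of Pou2f1 on the other strand, which had 32 and 26 reads. Cd4, the coreceptor gene (chromosome 6, 124864692 to 124888221), had 9272 and 15463 reads, a ratio of 1.54 (1.502 to 1.582).

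The receptor's own constant segments went the other way from Cd3e and Cd3g. Trac had 22526 and 11561 reads and was 2.11-fold lower in the exhausted library (2.06 to 2.16), which passed the 2-fold rule. Trbc1 had 5920 and 3976 reads (1.61-fold lower, 1.55 to 1.68) and Trbc2 had 29944 and 27705 (1.17-fold lower, 1.15 to 1.19). Levels of the alpha chain and of Cd247 were therefore lower in the same library in which Cd3e, Cd3g and Cd4 were at 1.39 to 1.54 times their effector level.

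Accessory surface proteins set the threshold at which the receptor signals. Ptprc, which encodes CD45, the phosphatase that removes the inhibitory phosphate of Lck, was the most abundant member with 29974 and 23257 reads (1.39-fold lower, 1.37 to 1.42). Cd2, an adhesion receptor for CD48, had 5300 and 5483 reads, a ratio of 0.956 (0.921 to 0.993). Cd5 and Cd6 encode related scavenger receptor family proteins bound to the receptor complex, and their genes lie 50.4 kb apart on chromosome 19 with 1 measured gene between them. They differed in direction. Cd5, known to dampen receptor signals, had 2539 and 4333 reads, a ratio of 1.58 (1.502 to 1.658), which did not reach 2-fold. Cd6 (10789341 to 10830058), which binds the adhesion protein CD166, had 3845 and 1917 reads and was 2.17-fold lower (2.05 to 2.29). The read ratio of Cd5 to Cd6 went from 0.66 in the effector to 2.26 in the exhausted library.

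Among the kinases the 2 that act first on the receptor moved apart. Lck, the Src family kinase that phosphorylates the CD3 tails (chromosome 4, 129548344 to 129573641), had 18053 and 15321 reads and was 1.27-fold lower (1.25 to 1.30). Zap70, which binds the phosphorylated tails (chromosome 1, 36761798 to 36782816), had 2077 and 4483 reads, a ratio of 1.995 (1.89 to 2.10). That is just short of the rule, and Zap70 passed it under DESeq2 size factors (log2 ratio 1.02) and upper quartile scaling (1.01), against 0.997 as scaled here. The read ratio of Zap70 to Lck was 0.115 in the effector and 0.293 in the exhausted library. Its relative Syk, the main kinase of this family in B cells, had 7 and 0 reads, so in both libraries nearly all of the family's level was Zap70. Fyn, the other Src family kinase of T cells, had 6606 and 8142 reads (ratio 1.14, 1.10 to 1.18). Per kilobase, Lck was 4.46 times the level of Fyn in the effector and 3.07 times in the exhausted library.

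Tec family kinases phosphorylate phospholipase C gamma, and both members of this family had fewer reads in the exhausted library. Txk, the only kinase among the members that was called (chromosome 5, 72695978 to 72752773), had 1417 and 622 reads and was 2.46-fold lower (2.24 to 2.71). Tec lies 2.9 kb from it and had 129 and 75 reads (1.86-fold lower, 1.39 to 2.51), which did not reach 2-fold. Tec had the fewest reads of all members. Prkcq, which encodes protein kinase C theta at the head of the NF-kB branch, had 4725 and 5801 reads, a ratio of 1.14 (1.09 to 1.18).

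**Figure D2:**
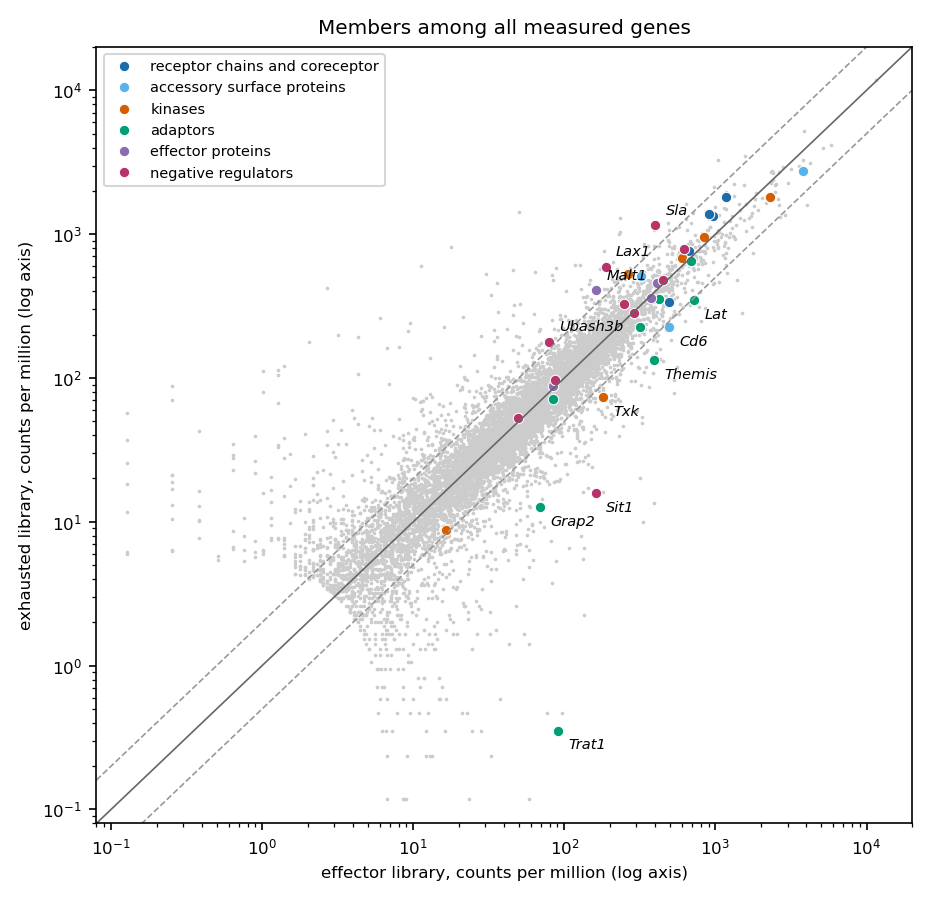
Reads scaled to 1000000 per library (counts per effective library size) in the effector (x axis) and exhausted (y axis) library, both log axes, for 9980 measured genes (grey; 19 with 0 reads in 1 library are not drawn) and the 38 members (coloured by role). The solid line marks equality and dashed lines 2-fold, and the 11 called members are named. Trat1 stands alone among the members at 91.2 against 0.353.

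Of the 9 genes in the adaptor role 4 were called, all lower in the exhausted library, or 44.4% beside 7.07% of all measured genes. That single direction depends on the roles, since the inhibitory adaptors Lax1 and Sla (higher) and Sit1 (lower) were counted as negative regulators. Trat1 had the largest difference of all members. Adaptors have no enzyme activity and bring kinases and their substrates together. Trat1, which encodes a small transmembrane adaptor attached to the receptor complex (ENSMUSG00000030775, chromosome 16, 48734690 to 48771956), had 716 reads in the effector and 3 in the exhausted library. It was 258-fold lower, with a counting interval of 88.0 to 1255. Its level per kilobase stood above 94.96% of measured protein-coding genes in the effector library and above 1.29% in the exhausted library. These ranks used the deposited length of 684 bases, against 4665 bases of exons annotated in GENCODE M21. With the longer length the level of Trat1 per kilobase would be lower, and its rank was not computed. Grap2, whose protein Gads links Lat to Lcp2 (chromosome 15, 80623505 to 80650559), had 541 and 107 reads and was 5.47-fold lower (4.44 to 6.79). Themis, a T cell adaptor first known from thymocyte selection (chromosome 10, 28668360 to 28883818), had 3093 and 1128 reads and was 2.97-fold lower (2.77 to 3.18). Lat, the central membrane scaffold (chromosome 7, 126363832 to 126369543), had 5681 and 2963 reads and was 2.07-fold lower (1.98 to 2.17). Since its interval reaches below 2-fold, Lat was not called where the whole interval had to lie beyond 2-fold.

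The other 5 adaptors had ratios nearer 1. Lcp2, the partner that Gads joins to Lat, had 5404 and 5486 reads, a ratio of 0.939 (0.904 to 0.975), so the 3 genes of this bridge differed unequally. Fyb and Skap1 encode a pair of interacting adaptors that link the receptor to integrins. Fyb had 2478 and 1912 reads (1.40-fold lower, 1.32 to 1.49) and shares exon sequence with Gm2245 on the other strand (42 and 51 reads), and Skap1 had 3326 and 3023 (1.19-fold lower, 1.13 to 1.25). Nck1, which connects to the actin cytoskeleton, had 659 and 605 reads (1.18-fold lower, 1.05 to 1.32). Sh2d2a, which encodes an adaptor of Lck, was the one adaptor with a ratio above 1, with 3285 and 3966 reads (1.12, 1.07 to 1.17). Ratios lay below 1 for 8 of the 9 genes in this role, and for 5016 of all 9999 measured genes. Summed over the role reads were 25183 and 19193, or 0.32% and 0.23% of each library. Most of that difference came from Lat (5681 and 2963) and Themis (3093 and 1128), so the sum does not describe the role as a whole.

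The effector proteins at the end of the proximal cascade were near equality except Malt1. Plcg1, which encodes phospholipase C gamma, had 2932 and 3058 reads, a ratio of 0.964 (0.916 to 1.01). Its exons overlap those of Zhx3 on the other strand, with 179 and 262 reads. Vav1, an exchange factor for small GTPases, had 3210 and 3865 reads, a ratio of 1.11 (1.06 to 1.17). Bcl10 and Malt1 encode 2 parts of the complex that opens the NF-kB branch. Bcl10 had 659 and 750 reads, a ratio of 1.05 (0.946 to 1.17), whereas Malt1, the complex's protease, had 1275 and 3465 reads and was 2.51-fold higher (2.36 to 2.68).

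Negative regulators included the highest members and the second lowest. Lax1, a membrane adaptor that restrains receptor signals (ENSMUSG00000051998, chromosome 1, 133679091 to 133690108), had 1472 and 5054 reads and was 3.17-fold higher in the exhausted library (2.99 to 3.37). Sla, which encodes the Src-like adaptor protein that targets receptor chains for degradation (chromosome 15, 66780819 to 66831829), had 3131 and 9761 reads and was 2.88-fold higher (2.77 to 3.001). Ubash3b, a phosphatase that acts on Zap70 (chromosome 9, 41011098 to 41161697), had 619 and 1518 reads and was 2.27-fold higher (2.06 to 2.49). Sit1, a transmembrane adaptor that binds the phosphatase Shp2 (ENSMUSG00000028460, chromosome 4, 43482081 to 43483734), went the other way, with 1272 and 134 reads, and was 10.3-fold lower (8.59 to 12.4).

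Each of the 2 higher genes with a close relative in the list differed from that relative. Ubash3a, the relative of Ubash3b that is largely restricted to lymphocytes, had 2266 and 2395 reads, a ratio of 0.977 (0.922 to 1.04). Sla2, the relative of Sla, had 681 and 823 reads, a ratio of 1.12 (1.01 to 1.24), and its exons overlap those of Rab5if on the other strand, with 170 and 217 reads. Sla took 67.5% of the level of this pair per kilobase in the effector and 84.3% in the exhausted library, and Ubash3b took 11.2% and 22.7% of its pair. With the exon lengths annotated in GENCODE M21, Ubash3b took 29.5% and 49.3%, near equality with Ubash3a in the exhausted library. The remaining 4 regulators had ratios between 1.06 and 1.32. Csk, the kinase that inhibits Lck, had 1946 and 2789 reads (1.32, 1.25 to 1.40). Pag1, the membrane adaptor that anchors Csk, had 390 and 447 (1.06, 0.923 to 1.22). Ptpn22, a phosphatase partner of Csk, had 3542 and 4072 (1.06, 1.02 to 1.11), and Ptpn6, which encodes the phosphatase Shp1, had 4851 and 6676 (1.27, 1.23 to 1.32), with Gm20531 overlapping it on the other strand (26 and 42 reads). Summed over the 10 regulators reads were 20170 and 33669, a ratio of 1.54 (1.52 to 1.57). Most of the added reads came from Sla (3131 and 9761) and Lax1 (1472 and 5054), so the sum does not describe the role as a whole. Ratios lay above 1 for 8 of the 10, and for 4983 of all 9999 measured genes.

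Membrane adaptors with tyrosine motifs differed in makeup between the libraries. This group was drawn up with earlier results known and holds the called members Lat, Trat1, Sit1 and Lax1, so a shift in shares was built in. Lat, Trat1, Sit1, Lax1 and Pag1 are all transmembrane proteins without a large outer part whose tails recruit signalling proteins. In the effector library Lat took 62.4% of their summed level per kilobase, Trat1 14.2%, Sit1 14.1%, Lax1 8.67% and Pag1 0.642%. In the exhausted library Lat took 50.4% and Lax1 46.1%, while Sit1 took 2.30%, Pag1 1.14% and Trat1 0.0924%. Lat had 3.86 times as many reads as Lax1 in the effector library and 0.586 times as many in the exhausted library. Gene lengths in the deposited table are shorter than the exons annotated in GENCODE M21 for most of these genes, 684 against 4665 bases for Trat1, so the shares of single genes depend on the length used. With the annotated lengths Lat took 52.7% and 31.4%, Lax1 16.4% and 64.1%, Sit1 25.9% and 3.11%, and Trat1 3.94% and 0.0188%. Sit1 then stood second to Lat in the effector library and well above Trat1, and Lax1 stood above Lat in the exhausted library.

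**Figure D3:**
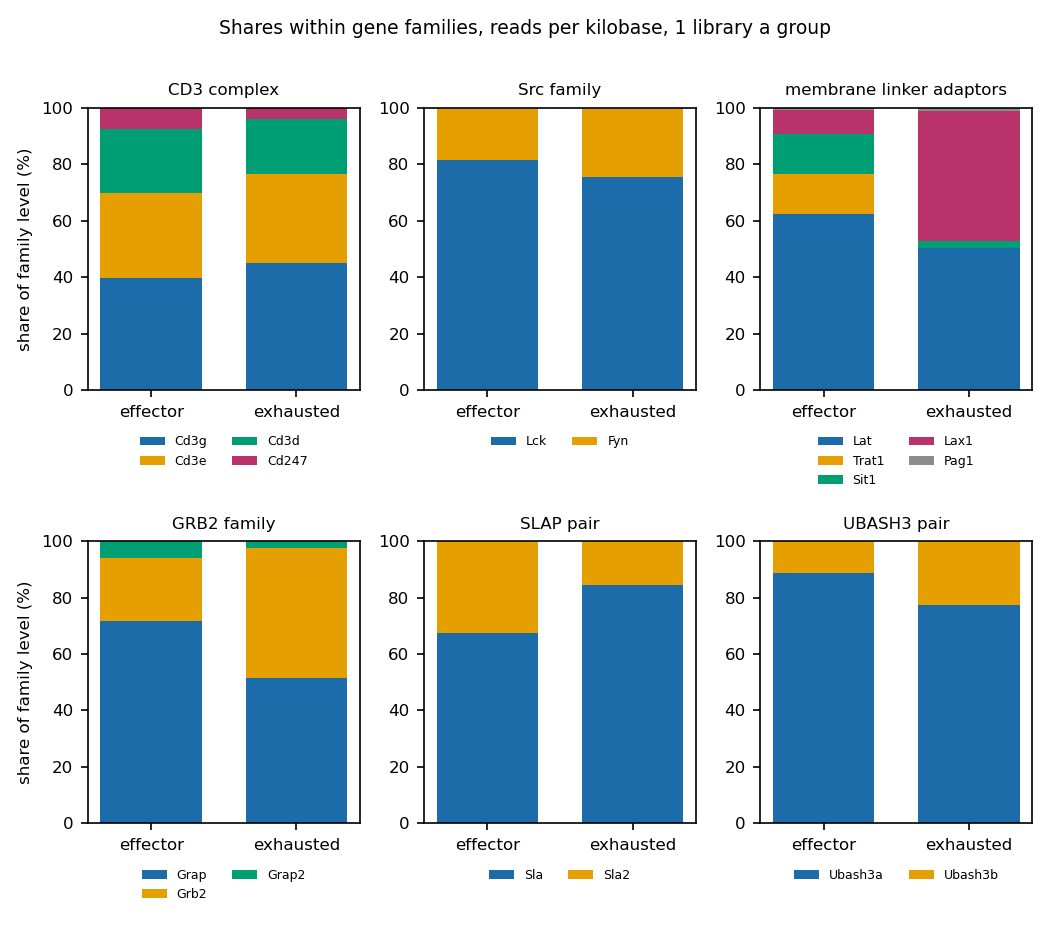
Share of each gene in its family's summed level (y axis, percent of reads per kilobase of deposited gene length) in the effector and exhausted library, 1 library each, so no error bars are drawn. In the membrane linker adaptors Lax1 goes from 8.67% to 46.1% and Trat1 from 14.2% to 0.0924%.

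The start regions of Trat1, Sit1, Grap2 and Lax1 are shown because these 4 adaptor genes had the largest absolute log2 ratios among the 30 members with a RefSeq promoter entry, Lax1 being higher and the others lower. Each is the 250 bases before the annotated start site on the gene's strand, from RefSeq on GRCm38.p6, in lower case with motif matches in capitals. The stretches are chr16:48772063-48772312 for Trat1 (minus strand), chr4:43483710-43483959 for Sit1 (minus strand), chr15:80623233-80623482 for Grap2 (plus strand) and chr1:133690109-133690358 for Lax1 (minus strand).
Trat1: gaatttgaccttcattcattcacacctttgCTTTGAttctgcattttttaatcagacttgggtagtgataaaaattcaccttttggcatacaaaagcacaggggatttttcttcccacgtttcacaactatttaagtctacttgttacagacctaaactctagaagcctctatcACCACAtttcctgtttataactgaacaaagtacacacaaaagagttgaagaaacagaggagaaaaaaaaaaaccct
Sit1: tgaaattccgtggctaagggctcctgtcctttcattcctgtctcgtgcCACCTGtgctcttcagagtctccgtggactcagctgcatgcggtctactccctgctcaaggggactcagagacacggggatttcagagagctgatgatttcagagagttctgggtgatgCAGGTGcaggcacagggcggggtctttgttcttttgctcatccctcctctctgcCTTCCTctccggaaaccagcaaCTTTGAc
Grap2: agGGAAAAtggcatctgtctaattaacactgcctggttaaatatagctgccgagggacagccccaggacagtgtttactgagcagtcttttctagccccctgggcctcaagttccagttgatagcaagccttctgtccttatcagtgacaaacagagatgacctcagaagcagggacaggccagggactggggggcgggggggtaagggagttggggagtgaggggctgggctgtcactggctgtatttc
Lax1: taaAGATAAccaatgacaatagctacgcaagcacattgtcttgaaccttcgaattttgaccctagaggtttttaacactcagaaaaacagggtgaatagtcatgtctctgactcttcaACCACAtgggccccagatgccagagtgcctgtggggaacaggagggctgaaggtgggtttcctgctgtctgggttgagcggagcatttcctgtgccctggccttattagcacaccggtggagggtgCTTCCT

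The 7 motifs searched, on both strands, were AGGAAG for the ETS family of factors, TGTGGT for the RUNX family, CTTTGA for TCF and LEF factors, AGATAA for the GATA family, GGAAAA for the NFAT family, TGANTCA for AP-1 dimers and CAGGTG for E proteins. The ETS and NFAT motifs can overlap. Trat1 held a TCF/LEF and a RUNX match, Sit1 held an E protein match in each orientation, an ETS and a TCF/LEF match, Grap2 a single NFAT match, and Lax1 a GATA, a RUNX and an ETS match. No motif was common to the 3 lower genes. Of the 30 members with a promoter entry, 20 held the ETS letters, or 66.7%, against 29.5% of all 32851 promoter entries, which include genes that T cells do not express. Each member gave 1 entry, the nearest to its deposited start, while every entry was kept for the comparison. Expressed genes alone were not compared, so these shares are of unlike sets. TCF/LEF and E protein letters were each in 30.0% of member promoters, against 13.8% and 17.2% of all entries, and the AP-1 letters were in none of the 30 and in 6.75% of all. TCF/LEF letters were in 3 of the 6 lower members with an entry and in neither of the 2 higher ones. ETS letters were in 3 lower and 2 higher members, and RUNX and NFAT letters each in 1 and 1. GATA letters were in 0 and 1, E protein letters in 1 and 0, and AP-1 letters in 0 and 0. So few promoters allow no contrast between lower and higher members. These are matches of letters in a short window, not measured binding sites.

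Other genes of receptor signalling were split evenly. Their list was drawn up from general knowledge, but with earlier results of these data known. Of 48 genes 46 were measured, of which 5 were higher, 5 lower and 36 neither, or 21.7% called beside the 13.7% background. Among all genes with at least 500 reads 8.27% were called, and this list was not counted at that minimum. Their median log2 ratio was 0.06. The highest was Ptpn11, which encodes the phosphatase Shp2, with 330 and 1854 reads (5.19-fold higher, 4.62 to 5.86). Sh3bp2, an adaptor of Syk family kinases, had 128 and 435 reads (3.14-fold, 2.57 to 3.86), and Itpkb, an inositol trisphosphate kinase, had 624 and 1573 (2.33-fold, 2.12 to 2.56). The phosphatase gene Ptprj (2.27-fold) and Tab2 of the NF-kB branch (2.05-fold) completed the higher genes.

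The lower genes of this wider list included 2 adaptors. Grap, a relative of Grap2 and Grb2, had 3352 and 1158 reads and was 3.13-fold lower, and Nck2, the relative of Nck1, had 660 and 341 reads and was 2.09-fold lower. Grb2, the ubiquitous relative, had 1688 and 1683 reads (ratio 0.922, 0.861 to 0.987), so its share of the 3 GRB2 family genes per kilobase went from 22.2% to 46.0%, while Grap went from 71.7% to 51.5% and Grap2 from 6.09% to 2.51%. Rhoh, a GTPase that helps recruit Zap70 (2.07-fold lower), and Cd8b1 (164 and 81 reads, 2.19-fold lower) were lower as well. Cblb, the ubiquitin ligase gene that raises the threshold of activation, had 1332 and 2605 reads and a ratio of 1.81 (1.69 to 1.93), short of the rule.

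**Figure D4:**
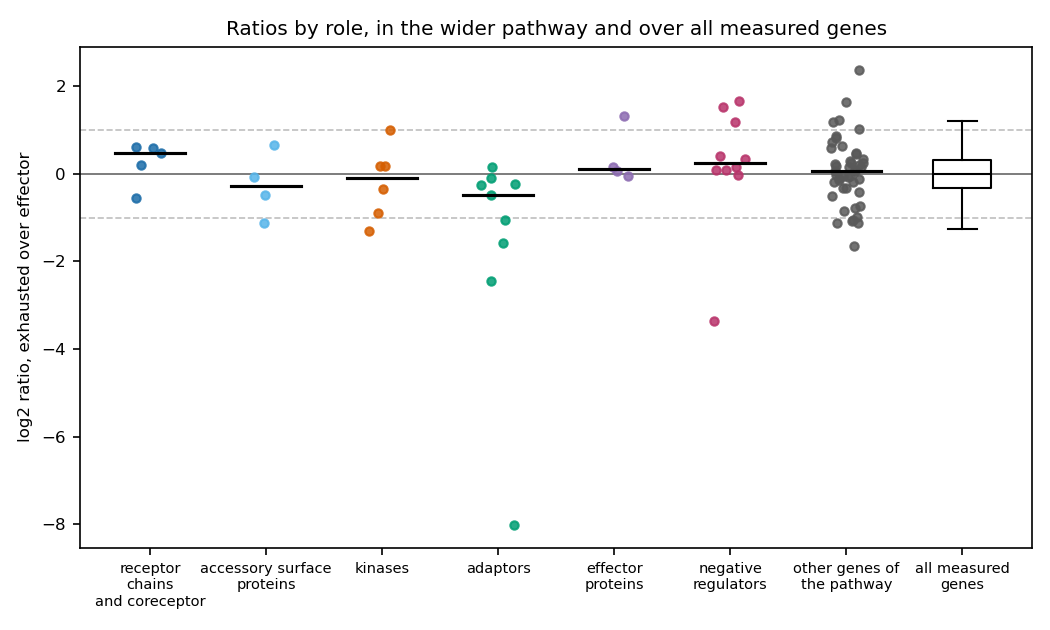
Log2 ratio, exhausted over effector (y axis), for members by role and for the 46 measured other genes of the pathway (points, with the median as a bar), beside a box of all 9999 measured genes (quartiles, with whiskers at the 5th and 95th percentiles, -1.25 and 1.20). Dashed lines mark 2-fold, and Trat1 and Sit1 lie far below the lower whisker.

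Markers of other cells were few beside the members. The 4 T cell markers had 37791 and 36437 reads summed. Cd8a and Ms4a1 had 0 reads in both libraries, which allows up to 3 reads each. Cd8b1, the other CD8 T cell marker, had 164 and 81 reads. Several members, such as Lax1, Sla, Ptpn6 and Tec, are also expressed by B or myeloid cells. The 5 B cell markers found had 21 and 20 reads summed, with Ms4a1 at 0 in both and Pax5 at 0 in the exhausted library. The 5 macrophage and monocyte markers had 61 and 19 reads, with 1 at 0 in each library. Red cell markers had 99 and 14 reads summed, neutrophil markers 62 and 3, plasma cell markers 47 and 20, dendritic cell markers 17 and 13, platelet markers 13 and 3, and gamma delta T cell markers 3 and 3. Among 3 NK cell markers Klrb1c had 36 and 229 reads (5.88-fold higher), while Ncr1 had 5 and 0 and Klre1 had 0 in both. The part of these cells in the members' ratios was not tested.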

How the data were processed

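RNA was sequenced from sorted spleen TEa cells in 2 libraries, 1 per group. The authors deposited raw read counts, 1 column per library, with each gene's position and length per the file headers. Per the submitters' processing notes, STAR 2.6 and build mm10 were used, and per the labels' protocols the libraries came from a low-input total RNA kit. The counter, strandedness and annotation used are not stated in the sources used here. Intervals and floors cover counting error only and treat each read as independent. PCR copies can be counted more than once, and where they were the intervals are too narrow.

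Counts were scaled by edgeR 4.0.16 TMM effective library sizes (R 4.3.3), ratios were taken for all 35275 genes, and exact Clopper-Pearson 95% intervals came from scipy 1.17.1. A library with 0 reads was set to a floor of 3. A gene needed 50 reads over the pair of libraries to count as measured. No pseudocount was used. The rule for calls was tested on simulated counts with counting noise only. That simulation held no variation between animals or libraries, so it cannot speak to that variation. With 1 library a group no gene was tested for significance.

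The members, roles and lists were chosen with earlier results of these data known. All 38 members are named, as are other pathway genes past the 2-fold rule, except that some genes of the lists are counted but not reported here by name; Grb2, Cblb and Syk were named after their values were seen, as was the choice of the 4 promoters. Motifs were chosen by general knowledge. Other settings tried were the scaling (with DESeq2 1.42.0 among others), read minimum, size rule, depth, floor, roles, genes counted and gene length. The markers Ighd and Trdc were not used here.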

Additional observations from a re-analysis of the deposited data

How the results depend on the processing

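Calls of the 38 members were identical under total counts, thinning of the deeper library and a prior count of 2. A read minimum of 1 could not change them, since every member had at least 50 reads. Leaving out the 11 members that share exon sequence with another gene left 27, with 4 higher and 5 lower. Lat and Themis were the lower members lost. The calls of the 27 could not change, because their ratios and scaling stayed the same. Zap70 became higher under DESeq2 size factors and upper quartile scaling, so that 1 kinase was higher. Scaling to the reads of the CD3 complex genes shifted the median log2 ratio of all measured genes to -0.33 and its calls to 414 higher and 1171 lower, and left 2 members higher in all (Malt1 and Ubash3b were no longer called), 0 effector proteins higher and 2 kinases lower, Tec being added. Median log2 ratios were then -0.25 for all members, 0.14 for receptor chains and coreceptor, -0.60 for accessory surface proteins, -0.41 for kinases, -0.82 for adaptors, -0.22 for effector proteins and -0.076 for negative regulators, of which only adaptors, accessory surface proteins and the kinases lay below the shift. A minimum of 500 reads leaves out Tec and put the median of the kinases at 0.18.

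At 1.5-fold, where 1371 of all measured genes were higher and 1359 lower, 8 members were higher in all, 2 receptor or coreceptor genes (Cd3g and Cd4), 1 accessory surface protein (Cd5) and 1 kinase were higher, and 2 kinases were lower. At 4-fold, where 220 of all measured genes were higher and 238 lower, 0 members were higher in all, effector proteins and negative regulators included, and 3 were lower (Trat1, Sit1 and Grap2), among them 2 adaptors, with 0 accessory surface proteins and 0 kinases. With Cd5 and Cd6 counted as negative regulators, 0 accessory surface proteins and 2 negative regulators were lower. With exon lengths of GENCODE M21 in place of the deposited lengths, an alternative chosen after seeing the data, shares in the effector and exhausted library were 28.4% and 33.9% for Cd3g, behind Cd3d, 80.3% and 73.7% for Lck, 52.7% and 31.4% for Lat, 60.8% and 80.0% for Sla, 70.5% and 50.7% for Ubash3a, and 73.7% for Grap in the effector library. No paired analysis was possible because each group has 1 library. At this depth Trat1's 3 exhausted reads and Tec's 204 reads in all set wide intervals.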
